A study of Homo sapiens with 24 samples.

Results

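The OE33 cGAS KO line was compared between MPS1i (reversine) and its solvent DMSO in 6 of the 24 libraries of the series. The 6 were taken by their sample labels, as the OE33 libraries with the cGAS KO genotype, and paired by the batch number that the labels give. OE33 is an established human esophageal adenocarcinoma cell line. In all 6 libraries the cells had been edited in CGAS with CRISPR-Cas9, and they differed in a 48 h treatment with 0.5 µM (500 nM) reversine in 3 libraries or with DMSO alone in the other 3, 1 library of each per batch. The rest of the series held OE33 Cas9 clones, which carried the empty Cas9 vector and had wild-type CGAS, and the same genotypes of the line SK-GT-4, each with 3 DMSO and 3 MPS1i libraries. The labels do not name a clone, so the cGAS KO cells were treated as 1 clone grown in 3 batches. What is particular to that clone cannot be told apart from the loss of cGAS. The p-values measure a spread between batches, estimated from the OE33 cGAS KO and Cas9 libraries together, and not a spread between clones.

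The enzyme cGAS binds double-stranded DNA outside the nucleus and makes 2′3′-cGAMP, which activates STING and, through it, interferon and NF-κB target genes. MPS1, encoded by TTK, is the kinase that holds cells in mitosis until every chromosome is attached to the spindle. Cells in which it is inhibited leave mitosis early and missegregate chromosomes, which can end up in micronuclei that cGAS can reach. In cGAS KO cells the comparison asks which transcripts differ with MPS1i where most of the cGAS transcript is missing.

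The guide used against CGAS matched hg38 at 1 site with an NGG motif on chromosome 6, chr6:73451711-73451730 on the plus strand, in the coding part of exon 1 of CGAS, which runs on the minus strand from 73452297 to 73413515. The site is shown because every library below depends on it, and its PAM is in capitals.
CGAS target site: atccctccgtacgagaatggGGG

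Promoters of 4 genes described below are shown, 250 bases before to 50 bases after the annotated start in RefSeq (GRCh38.p14), because genes of mitosis were lower with MPS1i together and because CYP1A1 was higher. Capitals mark, on either strand, the letters TTTGAA, the cell cycle homology region known from promoters of mitotic genes, and the NF-Y box CCAAT. In CYP1A1 they mark GCGTG, the core that the aryl hydrocarbon receptor binds.
CDC20, chr1:43358731-43359030, plus strand: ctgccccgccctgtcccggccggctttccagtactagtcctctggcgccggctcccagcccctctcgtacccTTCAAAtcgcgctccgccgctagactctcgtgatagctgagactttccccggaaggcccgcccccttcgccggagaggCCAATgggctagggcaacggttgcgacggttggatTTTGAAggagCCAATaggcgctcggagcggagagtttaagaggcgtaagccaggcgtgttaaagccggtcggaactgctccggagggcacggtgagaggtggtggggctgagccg
CCNA2, chr4:121823834-121824133, minus strand: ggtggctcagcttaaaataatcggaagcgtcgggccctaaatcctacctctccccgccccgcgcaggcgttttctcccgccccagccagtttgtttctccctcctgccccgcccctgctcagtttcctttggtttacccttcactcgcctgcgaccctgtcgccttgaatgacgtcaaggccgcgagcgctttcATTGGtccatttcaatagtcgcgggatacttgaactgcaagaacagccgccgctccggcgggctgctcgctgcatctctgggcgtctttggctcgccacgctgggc
CENPA, chr2:26785806-26786105, plus strand: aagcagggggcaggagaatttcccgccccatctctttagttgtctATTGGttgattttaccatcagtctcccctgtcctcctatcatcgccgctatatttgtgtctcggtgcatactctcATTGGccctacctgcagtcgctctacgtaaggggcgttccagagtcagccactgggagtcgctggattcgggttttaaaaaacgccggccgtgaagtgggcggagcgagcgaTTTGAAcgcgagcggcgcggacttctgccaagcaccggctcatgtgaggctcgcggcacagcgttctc
CYP1A1, chr15:74725479-74725778, minus strand: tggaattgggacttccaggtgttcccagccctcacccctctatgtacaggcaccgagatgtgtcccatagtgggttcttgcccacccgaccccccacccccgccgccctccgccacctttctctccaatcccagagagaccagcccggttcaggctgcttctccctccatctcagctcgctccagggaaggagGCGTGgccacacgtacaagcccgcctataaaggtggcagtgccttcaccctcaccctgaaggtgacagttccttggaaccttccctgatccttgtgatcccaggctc
The homology region, searched as these letters with T or C in the third place, stood in 31 of 43 promoters (72.1%) of the mitotic and kinesin lists described below, against 16.4% of 35116 promoters of the same length. The NF-Y box stood in 32 of the 43 (74.4%), against 34.6% of all. Of 30 promoters of DNA replication genes, 2 (6.67%) held the homology region. The NF-Y box stood in 56.7% of those 30. GCGTG stood in 7 of 7 promoters of aryl hydrocarbon receptor targets, but also in 60.5% of the mitotic and kinesin promoters and 53.3% of the replication promoters, against 36.5% of all. Both strands were searched, and a match says that the letters are there, not that a factor binds.

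CGAS (ENSG00000164430) checked the labels first. In CPM (counts scaled to library size with TMM factors), it had 2.23, 15.3 and 2.27 in the DMSO libraries of batches 1, 2 and 3, and 2.32, 2.72 and 2.44 in the MPS1i libraries. The 6 OE33 Cas9 libraries had between 28.6 and 40.7 CPM. The library labelled cGAS KO DMSO replicate 2 therefore stood apart, with 328 reads of CGAS where the other 5 had between 42 and 61. It was also placed by genes at least 4-fold different between cGAS KO and Cas9 cells of the same treatment in the other 2 batches, as a position between the cGAS KO level (0%) and the Cas9 level (100%). Its median position was 78.8% over 29 genes, against between -23.0% and 13.2% for the other 5 cGAS KO libraries. For the 10 of these genes that were higher in Cas9 cells the median was 37.2%, and for the 19 that were higher in cGAS KO cells it was 80.4%. DMSO replicates 1 and 3 were placed by only 9 and 8 genes, and the batches that set their cGAS KO level included replicate 2. DMSO replicate 3 stood at 42.1% over 2 genes higher in Cas9 cells and at -56.9% over 6 higher in cGAS KO cells. The library lay between both genotypes by each of these measures, so results are given with and without batch 2. Some genes lay outside both genotypes in it. CXCL1 was at 35.6 CPM, against at most 20.6 in the other 5 cGAS KO libraries and 17.5 in the Cas9 libraries. BCAS1 was at 6.98 CPM, against at least 10.7 and 21.8.

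**Figure D1:**
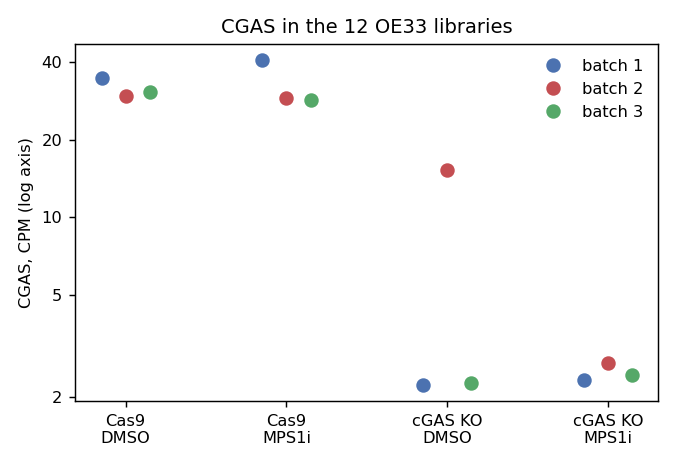
CGAS in CPM (log axis) in each of the 12 OE33 libraries by genotype and treatment, 1 point per library and colored by batch. The library labelled cGAS KO DMSO replicate 2 sits at 15.3 CPM, between the other 5 cGAS KO libraries (2.23 to 2.72) and the Cas9 libraries (28.6 to 40.7).

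Batch 2, which holds that library, had larger differences than batches 1 and 3 in many genes. Among 12245 genes with a mean of at least 1 CPM, 456 were more than 2-fold higher and 239 more than 2-fold lower with MPS1i in batch 2, against 60 and 16 in batch 1 and 110 and 45 in batch 3. The 240 genes that were at least 2-fold higher in cGAS KO than in Cas9 cells in DMSO of batches 1 and 3 had a median log2 difference of 0.98 in batch 2, and the 156 that were lower had -0.71, while 3400 genes under 1.2-fold apart had -0.01. Chromosomes differed as well, since the median of chromosome 18 was 0.41 and that of chromosome 8 was -0.26 in batch 2, while every chromosome lay between -0.087 and 0.041 in batches 1 and 3. Of these genotype-dependent genes, 2 of the 240 and 1 of the 156 were among the 49 genes described below, against 49 of all 20426 genes tested (0.240%). None of the 49 was on chromosome 18, which held only 166 of the 12245 genes. How much of any batch 2 difference came from this library was not tested, and values without it are given beside most results.

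**Figure D2:**
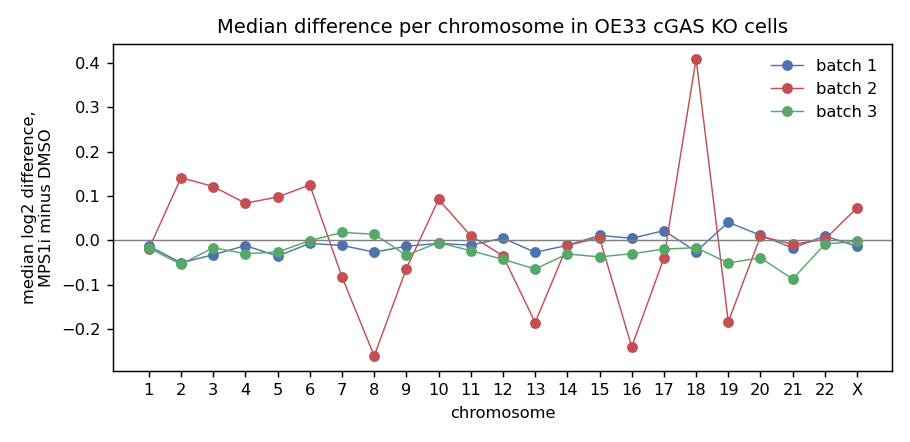
Median log2 difference in CPM between the MPS1i and DMSO libraries of a batch (y axis) over the genes of each chromosome (x axis), 1 line per batch. Batches 1 and 3 stay near 0 on every chromosome, while batch 2 reaches 0.41 on chromosome 18 and -0.26 on chromosome 8.

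The 6 libraries had between 19159690 and 25284177 reads in genes. Mitochondrial transcripts took 1.69%, 2.09% and 5.10% of reads in DMSO and 2.04%, 1.38% and 6.78% in MPS1i, so batch 3 was high under both treatments. The 15 mitochondrially encoded genes had median log2 differences of 0.32, -0.66 and 0.44 in batches 1, 2 and 3, and DESeq2 called 3 of them higher without batch 2 and 0 with it. The cells carried their epithelial label: KRT19 had between 9758 and 16360 CPM, and 12 epithelial markers summed to between 20880 and 24390 CPM. In contrast, 12 fibroblast and endothelial markers summed to between 0.59 and 6.87 CPM, with PECAM1 and CDH5 at 0. Of 32 columnar and intestinal genes, 7 had 0 reads in all 6 libraries, and the list summed to between 416.6 and 627.8 CPM. The study's myeloid and lymphoid lists summed to between 172.1 and 315.8 CPM and between 51.7 and 66.0 CPM, with 17 and 22 of 50 members at 0.

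With MPS1i, no gene of the OE33 cGAS KO cells passed an adjusted p of 0.01, the study's threshold, in the quasi-likelihood test of edgeR after Benjamini-Hochberg adjustment (0 of 20426 genes, 0.00%). The smallest adjusted p was 0.17, and 1136 genes were higher and 1110 lower at an unadjusted p under 0.05. Without batch 2 the number was again 0, with a smallest adjusted p of 0.075. DESeq2, with the same terms, called 49 genes (0.240%), of which 32 were higher (0.157%) and 17 were lower (0.0832%). Without batch 2, DESeq2 called 29 genes (0.142%), 22 higher (0.108%) and 7 lower (0.0343%). When the pairing by batch was left out, DESeq2 called 0 genes, so its 49 depended on the pairing. Only 9 genes were called with and without batch 2, which is 18.4% of the 49 and 31.0% of the 29. The older estimator of edgeR, run first and then replaced because it made too many false calls on simulated data, called 101 genes (0.494%), 70 higher (0.343%) and 31 lower (0.152%). Without batch 2 it called 145 (0.710%), 103 higher (0.504%) and 42 lower (0.206%). The simulated spread between genes was set near that fitted by the estimator that replaced it, so the simulation cannot decide between both estimators. With that same simulated spread, DESeq2 also made more false calls than its threshold allows, so some of its 49 genes may be false. The newer estimator missed most of the smaller changes there, and recovered none of the known changes without batch 2 or in the test of a difference between genotypes or lines, so a count of 0 does not show that expression was equal.

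Because edgeR called no gene, the genes named below by DESeq2 were chosen after their values were seen, and their fold changes are those of edgeR, in log2 with a standard error. All 49 had the same sign in 3 of 3 batches and again when batch 2 was left out, and each had an unadjusted edgeR p of at most 0.0023. The 32 higher genes had log2 fold changes between 0.43 and 1.41 (median 0.77), and the 17 lower genes between -1.02 and -0.36 (median -0.51). In 8 and 6 of them, respectively, the 3 MPS1i libraries did not overlap the 3 DMSO libraries, against 5.16% of all genes. The 49 were picked by a paired test on these same libraries. Their equal signs, small unadjusted p-values and lack of overlap are therefore no separate support for them. Batch 2 gave the largest of the 3 differences in 24 of the 32 and 14 of the 17.

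**Figure D3:**
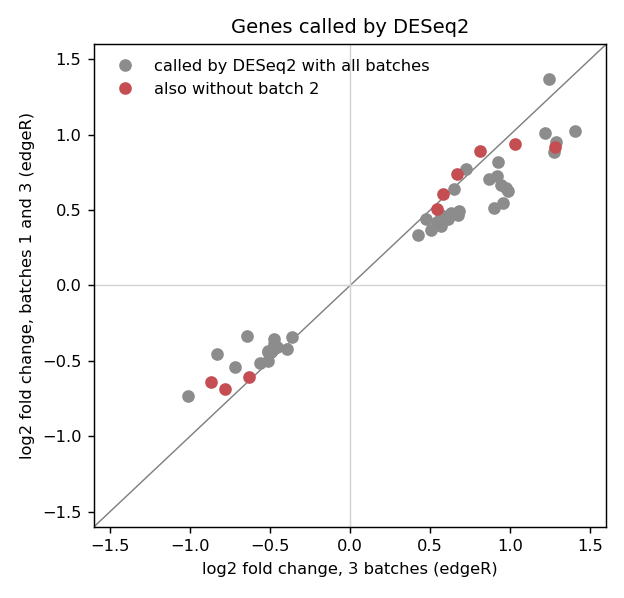
Log2 fold changes from edgeR of the 49 genes called by DESeq2 with all 3 batches (x axis) against those without batch 2 (y axis), with the line of equal values. All 49 keep their sign, most lie closer to 0 on the y axis, and the 9 red points are the genes DESeq2 called both ways.

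Among the 9 genes called with and without batch 2, those higher with MPS1i were TTC14, BCAS1, S100P, LIPH, VSIR and ICAM1. TTC14 (ENSG00000163728, chromosome 3 from 180602130 to 180617828), a tetratricopeptide repeat protein, had 11.0, 14.2 and 14.0 CPM in DMSO (batches 1, 2 and 3, an order used throughout) and 20.7, 21.6 and 26.4 CPM in MPS1i. All 3 MPS1i libraries lay above all 3 DMSO libraries, and the log2 fold change was 0.81 (standard error 0.11), or 0.89 without batch 2. DESeq2 gave it an adjusted p of 0.00036, and edgeR one of 0.17. Over the 9 genes the adjusted p of DESeq2 ran from 6.9e-07 for BCAS1 to 0.0061 for ICAM1 with all batches, and that of edgeR was 0.17 for each.
BCAS1 (chromosome 20 from 53936777 to 54070594), a gene first found amplified in breast cancer, had 10.7, 6.98 and 16.5 CPM in DMSO and 18.3, 29.1 and 35.1 CPM in MPS1i. The groups did not overlap, the log2 fold change was 1.28 (standard error 0.19), and it was 0.92 without batch 2, where the DMSO level was lowest. S100P (chromosome 4 from 6693069 to 6697170), a calcium-binding protein of gastrointestinal epithelium, had 9.10, 13.7 and 19.7 CPM in DMSO and 14.7, 31.1 and 43.9 CPM in MPS1i. Every batch was higher with MPS1i, but the groups overlapped because batch 1 was low throughout, and the log2 fold change was 1.03 (standard error 0.16), or 0.93 without batch 2.

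ICAM1 (chromosome 19 from 10270835 to 10286615), the adhesion molecule through which leukocytes bind cells and a target of NF-κB, had 22.1, 17.1 and 61.9 CPM in DMSO and 34.0, 23.6 and 113.5 CPM in MPS1i. It was higher with MPS1i in each batch, batch 3 was high under both treatments, and the log2 fold change was 0.67 (standard error 0.13), or 0.74 without batch 2. VSIR (chromosome 10 from 71747559 to 71773498), which encodes the immune checkpoint protein VISTA, had 64.9, 62.0 and 134.4 CPM in DMSO and 88.9, 86.3 and 232.6 CPM in MPS1i. The order within batches was the same, and the log2 fold change was 0.58 (standard error 0.098), or 0.61 without batch 2. LIPH, a lipase that makes lysophosphatidic acid, had a log2 fold change of 0.54 (standard error 0.093), or 0.51 without batch 2.

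RPL22L1, HAS3 and IFI44 were lower by DESeq2 with and without batch 2. RPL22L1 (chromosome 3 from 170864875 to 170870483), a paralog of the ribosomal protein RPL22, had 106.3, 110.9 and 82.8 CPM in DMSO and 78.0, 67.3 and 49.6 CPM in MPS1i. All MPS1i libraries lay below all DMSO libraries, with a log2 fold change of -0.63 (standard error 0.091), or -0.61 without batch 2. HAS3 (chromosome 16 from 69105564 to 69118719), a hyaluronan synthase, had 92.8, 173.7 and 144.7 CPM in DMSO and 73.9, 67.5 and 76.9 CPM in MPS1i.
The groups did not overlap for HAS3 either, with a log2 fold change of -0.87 (standard error 0.16), or -0.64 without batch 2, where its DMSO level was highest. IFI44 (chromosome 1 from 78649796 to 78664078), an interferon-stimulated gene, had 36.3, 30.7 and 66.0 CPM in DMSO and 25.2, 14.9 and 37.9 CPM in MPS1i. It was lower in each batch with overlapping groups, with a log2 fold change of -0.78 (standard error 0.11), or -0.69 without batch 2.

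**Figure D4:**
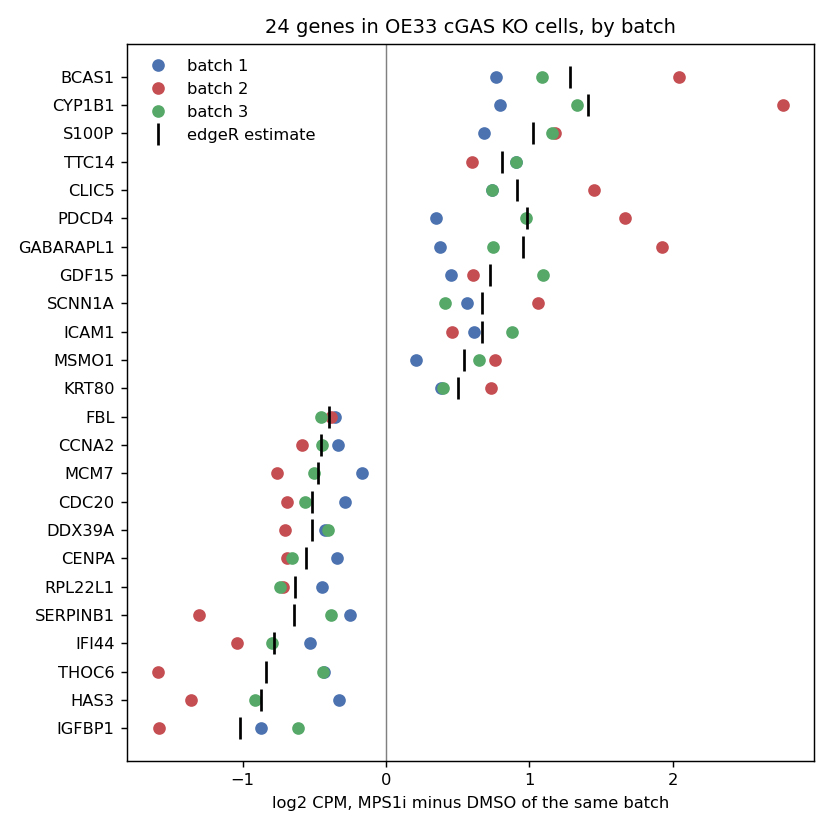
Log2 difference in CPM between MPS1i and DMSO within each batch (x axis, colored points) for 24 of the 49 genes called by DESeq2 (rows), with the edgeR estimate as a black bar. All 3 batches lie on the same side of 0 for each gene, and the red points of batch 2 are often the farthest from 0, as for CYP1B1, GABARAPL1 and THOC6.

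Of the other genes called higher, CYP1B1, a cytochrome P450 and a target of the aryl hydrocarbon receptor, had 11.1, 1.58 and 8.36 CPM in DMSO and 19.3, 11.4 and 21.2 CPM in MPS1i. The low DMSO level was that of batch 2, and the log2 fold change of 1.41 (standard error 0.26) became 1.02 without it. GDF15, a secreted stress factor, had 92.9, 153.1 and 359.4 CPM in DMSO and 127.5, 233.5 and 769.1 CPM in MPS1i, for a log2 fold change of 0.73 (standard error 0.14), or 0.77 without batch 2. It was highest in batch 3 under both treatments, so the groups overlapped. SCNN1A, a subunit of the epithelial sodium channel, was at 0.67 (standard error 0.13), or 0.47 without batch 2. KRT80, a keratin, had 152.5, 109.1 and 161.9 CPM in DMSO and 199.2, 181.6 and 213.2 CPM in MPS1i, without overlap, and was at 0.50 (standard error 0.099), or 0.37 without batch 2. PDCD4, an inhibitor of translation initiation, was at 0.98 (standard error 0.20), or 0.63 without batch 2. The group also held HOPX (1.27), a homeodomain protein of differentiation, INHBB (1.28), an activin subunit, FGFR3 (0.94), a growth factor receptor, and SPINT1 (0.43), a protease inhibitor. Without batch 2 these 4 had log2 fold changes of 0.88, 0.95, 0.66 and 0.33.

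Genes of mitosis, DNA replication and RNA processing were among those called lower by DESeq2. CDC20, the activator of the anaphase-promoting complex, had 161.4, 213.1 and 156.2 CPM in DMSO and 132.6, 132.3 and 105.4 CPM in MPS1i. The groups did not overlap, with a log2 fold change of -0.51 (standard error 0.095), or -0.44 without batch 2. CCNA2, cyclin A2, had 138.2, 150.1 and 113.0 CPM in DMSO and 109.8, 99.9 and 82.8 CPM in MPS1i, again without overlap, and a log2 fold change of -0.46 (standard error 0.085), or -0.41 without batch 2. CENPA, the histone H3 variant of centromeres, had 37.9, 46.6 and 34.2 CPM in DMSO and 29.9, 28.9 and 21.7 CPM in MPS1i.
CENPA too did not overlap, at -0.56 (standard error 0.11), or -0.51 without batch 2. MCM7, a subunit of the replicative helicase, was at -0.48 (standard error 0.10), or -0.35 without batch 2, and its DMSO level in batch 2 (1431 CPM) was far above those of batches 1 and 3 (812.2 and 687.9 CPM). DDX39A and THOC6, factors of mRNA export, were at -0.51 and -0.83, and FBL, the methyltransferase of ribosomal RNA, was at -0.39. Without batch 2 these were -0.44, -0.46 and -0.42, so THOC6 depended most on batch 2, where its DMSO library had 81.1 CPM against 52.5 and 29.3 CPM.

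The lists of cell cycle genes had mostly negative log2 fold changes, although few members passed a test. Of 25 genes of mitotic kinases and the spindle checkpoint, edgeR called 0 and DESeq2 2 (CDC20 and CCNA2), and 25 had a log2 fold change below 0, between -0.53 and -0.06, where 50.9% of all genes were above 0. Their median was -0.32, or -0.24 without batch 2, against 0.01 for all genes tested, and 16 of the 25 were lower in 3 of 3 batches, against 14.0% of all genes. PLK1, a kinase of mitotic entry and spindle assembly, had 190.9, 345.6 and 206.9 CPM in DMSO and 167.2, 181.0 and 150.4 CPM in MPS1i. It did not overlap between groups, with a log2 fold change of -0.53 (standard error 0.12), or -0.35 without batch 2, and missed the threshold in DESeq2 (adjusted p = 0.0101). CCNB1, cyclin B1, and BUB3, a checkpoint protein, the list's members with the most reads, were at -0.37 (standard error 0.085) and -0.10 (standard error 0.082), or -0.32 and -0.20 without batch 2. TTK, which encodes the kinase that reversine inhibits, was at -0.10.

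Of 25 kinesins and spindle assembly genes, 24 were below 0, with a median of -0.29, and 14 were lower in 3 of 3 batches. Without batch 2 the median was -0.25. DESeq2 called CENPA alone, and KIF20A, a kinesin of cytokinesis, was at -0.46 (standard error 0.10). All 36 DNA replication and S phase genes were below 0, with a median of -0.25, or -0.26 without batch 2, where 2 were above 0, and 19 were lower in 3 of 3 batches. MCM7 was the member called by DESeq2, while CDC45, which loads with the helicase, was at -0.49 (standard error 0.11) and PCNA, the sliding clamp, at -0.32 (standard error 0.079). Of the 70 CIN70 genes, a published signature of chromosomal instability made mostly of cell cycle genes, 66 were below 0 (median -0.25, or -0.24 without batch 2), 44 were lower in 3 of 3 batches, and DESeq2 called 2. CIN70 shares members with the other cell cycle lists. The median differences were smallest in batch 1, at -0.14, -0.02, -0.07 and -0.11 for the mitotic, kinesin, replication and CIN70 lists, against -0.41, -0.42, -0.42 and -0.33 in batch 3.

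Genes of lysosomes and autophagy had positive log2 fold changes throughout. All 24 were above 0, with a median log2 fold change of 0.27, or 0.21 without batch 2, and 14 were higher in 3 of 3 batches, against 15.7% of all genes. edgeR called 0 and DESeq2 1, GABARAPL1, which couples cargo to autophagosomes. It had 17.2, 6.38 and 20.6 CPM in DMSO and 22.4, 24.5 and 34.7 CPM in MPS1i, a log2 fold change of 0.95 (standard error 0.24), or 0.54 without batch 2. Its groups did not overlap, and its lowest value was the DMSO library of batch 2. ULK1, the kinase that starts autophagy, was at 0.52 (standard error 0.10), or 0.45 without batch 2. The members with the most reads, the cargo receptor SQSTM1 and the lysosomal protease CTSB, were at 0.33 (standard error 0.12) and 0.18 (standard error 0.075), or 0.15 and 0.13 without batch 2. The median was 0.06 in batch 1 and 0.33 in batch 3.

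Of 22 genes of cholesterol synthesis, 19 were above 0 (median 0.19, or 0.14 without batch 2), and 14 were higher in 3 of 3 batches. DESeq2 called MSMO1, a sterol oxidase, which had 71.0, 77.8 and 171.8 CPM in DMSO and 82.1, 131.6 and 269.4 CPM in MPS1i, at a log2 fold change of 0.54 (standard error 0.11), or 0.42 without batch 2. INSIG1, which retains the sterol sensor in the endoplasmic reticulum, was at 0.54. DHCR7, a reductase of the last step and among the members with the most reads, was at 0.26 (standard error 0.078).

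Among 9 aryl hydrocarbon receptor targets, 8 were above 0 and CYP1B1 was called by DESeq2. CYP1A1, the classical target, had 6.17, 3.86 and 2.91 CPM in DMSO and 13.5, 6.23 and 19.2 CPM in MPS1i. The groups did not overlap, and the log2 fold change was 1.49 (standard error 0.30), or 1.76 without batch 2, with adjusted p values of 0.17 in edgeR and 0.071 in DESeq2. Targets read most, NQO1 and TIPARP, were at 0.25 and -0.05, or -0.04 and 0.04 without batch 2.

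Chemokines that act on CXCR1 and CXCR2, the receptors that draw neutrophils and monocytes, were measured in 6 genes, and 0 were called by either tool. CXCL2 had 6.25, 3.82 and 7.28 CPM in DMSO and 10.9, 6.46 and 14.5 CPM in MPS1i, a log2 fold change of 0.86 (standard error 0.16), or 0.88 without batch 2. CXCL8, which encodes IL-8, had 54.4, 50.4 and 77.5 CPM in DMSO and 64.6, 95.1 and 147.0 CPM in MPS1i, a log2 fold change of 0.70 (standard error 0.22), or 0.57 without batch 2. Both were higher in each batch with overlapping groups, with adjusted p values from edgeR of 0.17 for CXCL2 and 0.30 for CXCL8. CXCL1 had 7.34, 35.6 and 14.8 CPM in DMSO and 9.74, 10.3 and 20.6 CPM in MPS1i. Its log2 fold change of -0.36 (standard error 0.36) rested on the DMSO library of batch 2 and was 0.43 without that batch. CXCL6 was at -0.43 with and 0.29 without batch 2. CXCL3 was at 0.42 (standard error 0.22) and PPBP, with 0 reads in the DMSO library of batch 2, at 1.38 (standard error 0.50), or 0.96 without it. IL6, the cytokine, did not exceed 1.14 CPM in any library and was at 2.27 (standard error 0.63), so it rested on few reads.

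Interferon-stimulated genes showed no common direction in the cGAS KO cells. Of the 97 genes of the Hallmark interferon-α response, 43 were above 0 and the median was -0.05, or -0.01 without batch 2. IFI44 was the member that DESeq2 called, lower. IFIT2, an interferon-induced protein that binds RNA, had 13.5, 28.0 and 45.7 CPM in DMSO and 20.1, 33.0 and 67.0 CPM in MPS1i, higher in each batch with overlapping groups, at 0.45 (standard error 0.11), or 0.54 without batch 2. IRF1, a transcription factor of the interferon response, and GBP2, a guanylate-binding protein, were at 0.39 (standard error 0.093) and 0.91 (standard error 0.24), or 0.40 and 0.66 without batch 2. CCL5 and CXCL10, chemokines for T cells, were at 0.14 (standard error 0.31) and 0.53 (standard error 1.11), with CXCL10 at no more than 0.182 CPM. Of 15 genes of the cGAS-STING pathway, 11 were below 0 and 4 above, while 6 were above 0 without batch 2. The median was -0.10, or -0.06 without batch 2. The list includes CGAS, at -1.185, or 0.06 without batch 2. STING1, listed as TMEM173, had 1.17, 2.19 and 3.34 CPM in DMSO and 1.59, 1.56 and 4.57 CPM in MPS1i. It was low in every library, at 0.17 (standard error 0.24).

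The rule for named genes also took the genes with the smallest p in each direction. Beside TTC14, BCAS1, S100P, IFI44, RPL22L1 and DDX39A these were CLIC5, FOSB, SMN1 and SH3PXD2A-AS1. CLIC5, a chloride channel protein, was at 0.91 (standard error 0.15), or 0.72 without batch 2, and FOSB, an AP-1 subunit with between 0.81 and 7.28 CPM, at 1.40 (standard error 0.21), or 1.49 without batch 2. SMN1, of the complex that assembles spliceosomal particles, had 47.4, 58.2 and 38.4 CPM in DMSO and 19.1, 13.7 and 12.1 CPM in MPS1i. Its groups did not overlap, at -1.68 (standard error 0.30), but its near-identical copy SMN2 had a log2 fold change of 0.20 (standard error 0.12) and the counting of reads that fit both is not stated, so SMN1 is uncertain. The antisense transcript SH3PXD2A-AS1 was at -1.21 (standard error 0.20) with no more than 5.03 CPM.

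To ask whether these differences were particular to cGAS KO cells, the MPS1i effect was tested against that in Cas9 cells. No gene passed by edgeR (0 of 20426, 0.00%, smallest adjusted p 0.67) or by DESeq2. At an unadjusted p under 0.05 there were 643 genes in edgeR and 262 in DESeq2, and without batch 2 of the cGAS KO cells edgeR again called 0. The genes of smallest p with the same sign in 3 batches were NSFP1, ZNF675, AC244153.1, SPCS2P4 and RGPD6. NSFP1 and RGPD6 stayed under 1 CPM in the cGAS KO libraries. ZNF675 and AC244153.1 were highest in the library labelled cGAS KO DMSO replicate 2, at 2.00 and 11.96 CPM, where the other 5 had at most 0.223 and 1.43 CPM. SPCS2P4 is a pseudogene of SPCS2 and may hold its reads.

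The fold changes of both genotypes stood close for the cell cycle lists, with Cas9 medians of -0.32, -0.35, -0.21 and -0.20 for the mitotic, kinesin, replication and CIN70 lists. The cholesterol list had a median of 0.19 in cGAS KO cells, or 0.14 without batch 2, and 0.05 in Cas9 cells. The autophagy and lysosome list had 0.27, or 0.21 without batch 2, and 0.11. With batch 2 included, the fold change was larger in Cas9 cells for 0 of 22 and 5 of 24 of their genes, against 9982 of all 20426. Of the 49 genes, 48 had the same sign in Cas9 cells, where 62.0% of all genes did, and DESeq2, which called 72 genes (0.352%) in Cas9 cells, 40 higher (0.196%) and 32 lower (0.157%), called 11 of the 49 there. SCNN1A was the exception, at 0.67 in cGAS KO and -0.02 in Cas9 cells, with an unadjusted p of 0.0026 for the difference. Aryl hydrocarbon receptor targets had a median of 0.25 in cGAS KO cells, or 0.43 without batch 2, and 0.69 in Cas9 cells. CYP1A1 was at 1.49 and 2.44 (unadjusted p = 0.045 for the difference, or 0.10 without batch 2). IFIT2 was at 0.45 in cGAS KO and 1.11 in Cas9 cells (difference -0.66, standard error 0.15, unadjusted p = 0.0022), while CXCL2 was at 0.86 in both. CXCL8 was at 0.70 and 1.05, a difference of -0.35 (unadjusted p = 0.31). IL6 went the other way on few reads, at 2.27 in cGAS KO and 0.18 in Cas9 cells. Its difference was 2.09 (standard error 0.96, unadjusted p = 0.048 in edgeR, or 0.070 without batch 2 of the cGAS KO cells). The interferon-α list had a median of -0.05 in cGAS KO and 0.11 in Cas9 cells, and 12 of its 97 genes had an unadjusted p under 0.05 for the difference, against 3.15% of all genes. Most lists had smaller shares, but some had larger ones. Among these were 5 of 14 immune checkpoint genes of tumor cells, 6 of 20 TGF-β targets and 4 of 15 cGAS-STING genes. These counts include batch 2 and were not made without it.

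SK-GT-4 cGAS KO cells gave a second knockout to set beside OE33. The difference in MPS1i effect between both knockouts passed for 0 of 25181 genes by edgeR (0.00%) and by DESeq2, with 691 and 592 genes at an unadjusted p under 0.05. Of the 49 genes, 40 (81.6%) had the same sign in SK-GT-4 cGAS KO cells, where 54.7% of all genes did. DESeq2 called 1 gene in those cells (0.00397%), TTC14, which was also among the 49. TTC14 was at 1.18, CYP1A1 at 1.54, RPL22L1 at -0.65 and CENPA at -0.47 in that knockout, whereas S100P was at -0.43 and HAS3 at 0.29. The mitotic list had a median of -0.34 there, with 3 of 25 genes above 0. The kinesin, replication and CIN70 lists had medians of -0.11, -0.18 and -0.19 in that knockout, with 8 of 25, 9 of 36 and 16 of 70 genes above 0. The cholesterol list had a median of 0.005 there, with 11 of 22 genes above 0. The autophagy and lysosome list had a median of 0.21, with 16 of 24 genes above 0. The genes of smallest p for the difference were SPCS2P4, SRRM3, NDRG1, SH3PXD2A-AS1 and IL1RL1, of which IL1RL1, the receptor of IL-33, was at -1.004 (standard error 0.20) in OE33, or -0.62 without batch 2, and at 0.38 in the SK-GT-4 line. NDRG1, a stress-induced gene, was at -0.35, or -0.21 without batch 2, and 0.60.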

How the data were processed

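RNA of OE33 and SK-GT-4 cells was sequenced in 24 libraries, and the 12 OE33 libraries were fitted here. Per the labels and the methods of the study, the authors selected poly(A) RNA, aligned paired-end reads with HISAT2 2.0.5 (GRCh38) and obtained counts by gene from featureCounts 1.5.0. The deposited values are raw counts for 58735 genes, not normalized, and the annotation release, strand setting and handling of reads that fit several genes are not given in the sources used here. Total counts of the 6 cGAS KO libraries were between 19159690 and 25284177, and genes near 1 CPM rest on about 20 reads and are imprecise. No pair of libraries had matching counts.

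Counts were analysed in R 4.3.3. As in the study, genes with fewer than 5 reads in total, or with reads in fewer than 4 libraries, were dropped, and 20426 remained. edgeR 4.0.16 (TMM factors, quasi-likelihood test, Benjamini-Hochberg adjustment over all genes tested) was fitted with a term per genotype and batch and an MPS1i effect per genotype, with a threshold of 0.01 on the adjusted p. DESeq2 1.42.0 with the same terms was run beside it, and it too made more false calls on simulated data than its threshold allows. The quasi-likelihood setting was changed after the data were seen. The default of this edgeR version, its older estimator, was run first and called 101 genes. It used a prior of 34.6 degrees of freedom beside 4 residual ones and made too many false calls on simulated data. The newer estimator (legacy=FALSE, prior of 6.97) therefore gives the main result. The simulated spread between genes was set near the prior of the newer estimator, so the simulation cannot decide between both estimators. Its result for DESeq2 also holds only for that spread. CPM and log2 CPM used TMM factors, the latter with a prior count of 2. Levels of different genes are not compared, since CPM is not divided by length.

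The batch number of the labels pairs DMSO with MPS1i: after removal of treatment means, both libraries of a batch correlated at 0.36, 0.26 and 0.55 in cGAS KO cells and at 0.19, 0.37 and 0.41 in Cas9 cells.

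The rule for named genes took CGAS and STING1, the 5 genes of smallest p in each direction with a mean of at least 1 CPM and the same sign in 3 batches, the members of each list with the most reads (some are not reported here), every RT-qPCR gene and CXCR1/2 ligand, and the 5 genes of smallest p for each difference between genotypes or lines. Genes named for their DESeq2 call, and PLK1, TTK, KIF20A, CDC45, ULK1, INSIG1, CYP1A1, IRF1 and GBP2, were chosen after their values were seen. The libraries compared and the lists, written from general knowledge or taken from the study's tables, were chosen with earlier results of these data known. Alternatives were other blocks, filters, size factors and thresholds, DESeq2, the cGAS KO libraries alone and each batch left out. The older estimator, DESeq2 or edgeR's own filter without batch 2, and batch 2 left out of both genotypes were added after the data were seen. Promoters came from RefSeq (GRCh38.p14), where the table held 43 of the 50 mitotic and kinesin genes, and the guide was matched to hg38.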

Additional observations from a re-analysis of the deposited data

How the results depend on the processing

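edgeR called 0 genes higher and 0 lower under each of no replicate block, a replicate block shared by both genotypes, no filter, its own filter, DESeq2's size factors, the cGAS KO libraries alone, batch 2 left out of both genotypes, and each cGAS KO batch left out (0 to 0). DESeq2 called 32 higher and 17 lower, and 22 and 7 without replicate 2. The older estimator called 70 and 31, and 103 and 42 without replicate 2. The difference from Cas9 cells, which the cGAS KO libraries alone cannot give, was called for 0 genes in each of the other fits except 1. That fit was the older estimator without replicate 2 (9 genes). The difference from SK-GT-4 cGAS KO cells was called for 0, also without replicate 1, 2 or 3 (0 to 0). The pairing by batch could not change a count of 0 in edgeR, but DESeq2 called 0 genes without the replicate block, a fit added after the data were seen. CGAS, CXCL1 and CXCL6 changed sign without replicate 2 of the cGAS KO cells, whose DMSO library held 15.3 CPM of CGAS against 2.23 and 2.27 in the other two. The fits that join this setting with another tool, filter or genotype, and the older estimator, were added after the data were seen. The log2 fold change of CGAS ran from -1.65 to 0.06 over the single replicates left out, and without replicate 2 was 0.085 by DESeq2, 0.063 with batch 2 left out of both genotypes, 0.062 by the older estimator and 0.088 with edgeR's own filter. CXCL1 ran from -0.82 to 0.43, with 0.45, 0.43, 0.43 and 0.45 in those fits, and CXCL6 from -0.82 to 0.29, with 0.31, 0.29, 0.29 and 0.32. TMEM173 ran from -0.068 to 0.43, CXCL10 from -0.064 to 0.84 and CCL5 from -0.37 to 0.29. CCL5 was -0.16 by DESeq2 and -0.028 by the older estimator. The cause of these sign changes was not tested.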

Other observations

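Some gene lists not described above differed in batch 2. The 20 targets of NRF2, the transcription factor of oxidative stress defence, had a median log2 fold change of 0.27 with all batches and -0.01 without batch 2, with batch medians of -0.10, 0.79 and 0.14. HMOX1, heme oxygenase, was higher in 3 of 3 batches without overlap, at 0.96 (standard error 0.25), or 0.57 without batch 2 (adjusted p of 0.23 in edgeR and 0.015 in DESeq2). The 20 TGF-β targets had a median of 0.28, or 0.11 without batch 2. The 28 histone genes had batch medians of -0.07, 0.53 and -0.04, but a median fold change of -0.02, or -0.08 without batch 2. The role of the library labelled cGAS KO DMSO replicate 2 in these values was not tested.

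Other lists were less affected by batch 2. Of 19 genes of the ATF4 stress response, which acts on amino acid supply, 13 were above 0, with a median of 0.21, or 0.15 without batch 2, and a Cas9 median of 0.17. Of 14 immune checkpoint genes of tumor cells, 11 were above 0, with a median of 0.21, or 0.18 without batch 2. VSIR was the one that DESeq2 called, and CEACAM1, an inhibitory adhesion molecule, was at 0.83 (standard error 0.17), or 0.64 without batch 2. Of 36 ribosomal protein genes, by contrast, 26 were below 0 with all batches (median -0.04) and all 36 without batch 2 (median -0.12).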
